A study of Mus musculus with 9 samples.

Results

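A set of 9 genes that carries the insulin signal to glucose uptake is described here in C2C12 cells, a mouse myoblast line that divides in serum and can fuse into myotubes. They encode the insulin receptor (Insr), its adaptors (Irs1 and Irs2), a phosphoinositide 3-kinase subunit (Pik3r1), the kinases AKT1 and AKT2 (Akt1 and Akt2), the AKT substrate AS160 (Tbc1d4) and the glucose transporters GLUT1 and GLUT4 (Slc2a1 and Slc2a4). They were taken by gene symbol, 9 of the 53700 genes in the count table, and all 9 passed the filter on low counts. RNA was sequenced from 9 libraries, 3 in each of 3 groups, and the 3 wells of a group were a random draw from the 6 wells of a single plate. The Control plate was harvested once it had spent 12 h in OPTI-MEM, a low-serum medium that contains insulin. Valine wells were starved in the same way for 12 h and then kept for 36 h with 0.45 mM valine, a branched-chain amino acid. Val+PA wells were starved for 12 h, and their treatment was 24 h with valine at 0.45 mM and 12 h with the saturated fatty acid palmitic acid at 75 µM. No well without valine was measured here at the later time, so valine, time in culture and plate cannot be told apart. Between Val+PA and Valine, palmitic acid, plate and the labelled time with valine (24 h against 36 h) cannot be told apart either. No insulin stimulation is labelled for any group. All p-values therefore rest on well-to-well spread within a plate, in 1 cell line.

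Insulin binds its receptor, a tyrosine kinase, which phosphorylates the IRS adaptors. The adaptors recruit phosphoinositide 3-kinase, whose lipid product brings AKT to the membrane. AKT phosphorylates AS160, a restraint on Rab GTPases, and vesicles that carry GLUT4 then move to the cell surface. In skeletal muscle GLUT4 is the transporter that insulin mobilises, while GLUT1 serves basal uptake and is abundant in dividing myoblasts. AKT2 is the isoform most tied to glucose transport in muscle and fat, and AKT1 to growth. Most of this regulation acts on proteins, which RNA levels do not measure.

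Irs1 and Irs2 are paralogs, and their promoters are shown because Irs1 passed the test against Control and Irs2 did not. The sequences are the 250 bases before the RefSeq start of each gene, in GRCm38.p6, 5′ to 3′ on the minus strand. Irs1 lies at chr1:82291440-82291689 and Irs2 at chr8:11008930-11009179. Capitals mark the stretch that holds the 2 longest runs of letters shared by the windows:
Irs1: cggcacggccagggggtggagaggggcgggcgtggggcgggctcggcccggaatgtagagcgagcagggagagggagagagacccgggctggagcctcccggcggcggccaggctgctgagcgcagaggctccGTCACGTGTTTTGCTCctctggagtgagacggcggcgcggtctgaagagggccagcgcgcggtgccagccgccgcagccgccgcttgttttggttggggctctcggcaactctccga
Irs2: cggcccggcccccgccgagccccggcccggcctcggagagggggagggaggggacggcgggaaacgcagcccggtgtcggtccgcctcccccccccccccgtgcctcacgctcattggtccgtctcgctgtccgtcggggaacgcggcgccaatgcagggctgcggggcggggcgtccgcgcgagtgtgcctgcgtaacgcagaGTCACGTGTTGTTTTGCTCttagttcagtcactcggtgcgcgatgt
The first shared run, GTCACGTGTT, holds the E-box CACGTG, a core bound by basic helix-loop-helix factors. It was found on either strand in 24 of 32544 promoter windows of 300 bases over all genes, or 0.0737%. The second run, TGTTTTGCTC, overlaps the first and was found in 25 windows, or 0.0768%. CACGTG alone was in 7.17% of windows, and among the 12 windows that matched 7 of the 9 genes it was in those of Irs1 and Irs2. These runs were picked after the sequences were seen and are matches of letters, with no binding measured.

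Library totals ran from 26750226 to 35976589 counts, so 1 count was worth 0.0271 to 0.0403 CPM, the count relative to the TMM-scaled size of its library. Control 3 and Val+PA 2 stood apart from the other wells of their groups: pairs with Control 3 had a chi-square per degree of freedom of 108 and 118 against 11 for the other Control pair. Pairs with Val+PA 2 had 90.1 and 51.4, against 20.1 for the other Val+PA pair and 3.99 to 5.41 in Valine. All 8 myoblast markers were tested and their summed level was 2170 to 2490 CPM in Control, 3440 to 3640 CPM in Valine and 3310 to 5290 CPM in Val+PA. Most of the sum was Des and Itga7. Between Valine and Control 3 of the 8 markers rose, 1 fell and 4 were not called, or 50% called. Of all 18415 tested genes 41.9% were called there, 20.8% higher and 21.1% lower. Markers of myotubes summed to 7.01 to 9.36 CPM in Control, 67 to 71.2 CPM in Valine and 45.3 to 64.4 CPM in Val+PA. In Valine 7 of 7 tested rose, beside 20.8% of all genes, and Myh8 was not tested. Of these, Ckm met the filter on low counts in no Control well, and Tnnt3 not in Control 3, at 0.201 CPM. The Control wells alone would thus not have placed Ckm or Tnnt3 among the tested genes. Markers of fibroblasts and fibro-adipogenic progenitors, 8 in all, went from 370 to 511 CPM in Control to 1650 to 1750 CPM in Valine and 1560 to 1830 CPM in Val+PA. Most of that sum was Ly6a, at 386 ± 75, 1400 ± 62 and 1480 ± 170 CPM (SD, n = 3). Of 7 tested, 5 rose in Valine, beside 20.8% of all genes, and Pdgfra and Col1a1 were not called. Of the 5, Lum met the filter on low counts in no Control well, and Dpt not in Control 1, at 0.256 CPM. Thy1 was not tested. Of 8 adipocyte markers Adipoq, Lep and Retn had no count in any library, and the list summed to 19.7 to 22.6, 27 to 32.4 and 21.2 to 26 CPM. Most of that was Pparg, at 14, 12.8 and 15.2 CPM in Control, Valine and Val+PA, and Car3, at 6.86, 17.2 and 8.38 CPM. Only these 2 were tested, and in Valine Car3 rose and Pparg was not called. Endothelial markers (5 genes, Emcn at 0) summed to at most 3.49 CPM and immune markers (5 genes, Itgam at 0) to at most 7.06 CPM. The part of these shifts in the results on the insulin genes was not tested. In bulk RNA, fewer cells of a type and less RNA per cell cannot be told apart.

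Between Valine and Control, Insr and Slc2a4 rose and Irs1 and Akt1 fell, and the other 5 genes did not pass the test. Slc2a4 had at most 5 counts in a Control well, met the filter on low counts in all Valine wells and in no Control well, and lost its call in 5 of 17 alternatives. These 4 of 9 calls stand beside 41.9% of the 18415 tested genes called in the same comparison (20.8% higher and 21.1% lower), so the share of calls was near the background. In CPM, the wells of 1 group all lay above those of the other for 8 of the 9 genes, without overlap, against 59% of all tested genes. Between Val+PA and Valine none of the 9 passed and 0% of all genes did (edgeR quasi-likelihood test). In that comparison 2428 genes had an unadjusted p below 0.05, DESeq2 called 186 and limma-voom called 0. The 2 sets of wells did not overlap for 5 of the 9 genes, beside 24.6% of all genes. Between Val+PA and Control, Insr and Akt2 rose and Irs1 fell, 3 of 9 beside 39.2% of all genes, 20.4% higher and 18.8% lower, and 4 of 9 did not overlap, beside 45.5%. Valine against Control and Val+PA against Control use the same Control wells and are given side by side. With library size alone as the scaling, the calls between Valine and Control were 4 higher and 2 lower. Without Control 3 and Val+PA 2 they were also 4 and 2, and those between Val+PA and Control 3 and 2. These wells were left out because they stood apart in these same data, so a smaller spread follows from the choice. This limit holds for every result given below without both wells. Without Control 1, or without Control 2, the calls between Val+PA and Control came to 1, the fall of Irs1.

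**Figure D1:**
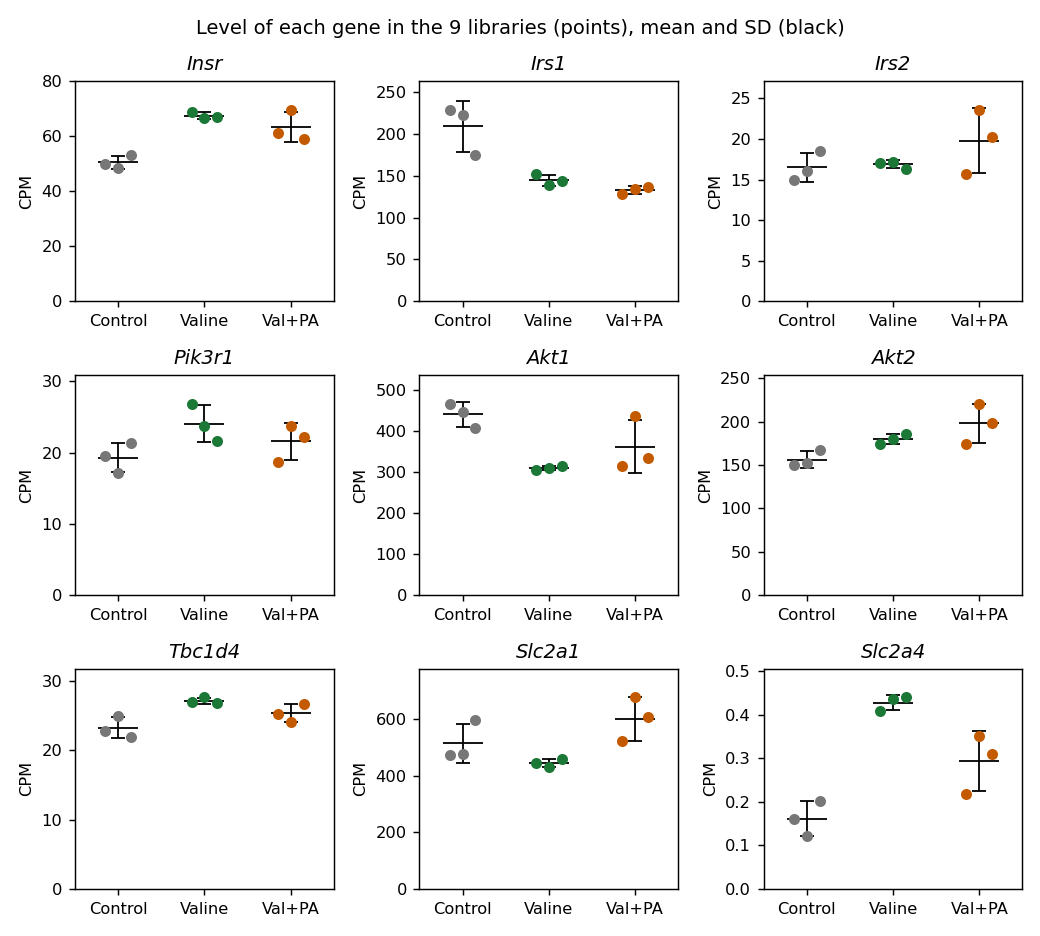
Level of each of the 9 genes in CPM (y axis, from 0) in the Control, Valine and Val+PA wells (x axis). Points are libraries, the black bar is the mean and the whiskers are the SD of 3 libraries. Irs1 and Akt1 lie lower in all Valine wells than in all Control wells, Insr lies higher, and Slc2a4 is at most 0.44 CPM throughout.

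Insr (ENSMUSG00000005534, GRCm38 chromosome 8, 3122061 to 3279617, minus strand) encodes the receptor tyrosine kinase at the head of the pathway. It measured 50, 48.5 and 53 CPM in the Control wells, 68.8, 66.5 and 66.8 CPM in the Valine wells and 61.2, 69.6 and 59.1 CPM in the Val+PA wells. Every Valine and Val+PA well was above every Control well, and the Valine and Val+PA wells overlapped. The rise in Valine was 1.33-fold, or 0.42 in log2 fold change (SE 0.10, adjusted p = 0.0051 in the edgeR quasi-likelihood test, adjusted over all tested genes by Benjamini-Hochberg). In absolute size this log2 fold change exceeded that of 47% of tested genes, which puts it in the middle of this comparison. Val+PA stood at 63.3 ± 5.5 CPM (SD, n = 3) against 50.5 ± 2.3 CPM in Control, a log2 fold change of 0.33 (SE 0.10, edgeR adjusted p = 0.0202). That second call was lost without Control 1 (edgeR adjusted p = 0.0639) or Control 2 (0.0846), and in a fit of the 2 groups alone (0.0719). Between Val+PA and Valine the log2 fold change was -0.09 (SE 0.10, edgeR adjusted p = 0.67).

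Irs1 (ENSMUSG00000055980, chromosome 1, 82233101 to 82291416, minus strand) encodes the adaptor that links the receptor to phosphoinositide 3-kinase in muscle. Its level was 229, 223 and 175 CPM in Control, 152, 139 and 144 CPM in Valine and 128, 134 and 137 CPM in Val+PA. All Valine and Val+PA wells were below all Control wells, and Control 3 was the lowest of the Controls. Irs1 fell by 0.53 in log2 fold change in Valine (SE 0.11, adjusted p = 0.00256, edgeR quasi-likelihood test) and by 0.65 in Val+PA against Control (SE 0.11, edgeR adjusted p = 0.000646). Val+PA wells were also all below the Valine wells, at 133 ± 4.5 against 145 ± 6.6 CPM (SD, n = 3). That difference did not pass (log2 fold change -0.13, SE 0.11, edgeR adjusted p = 0.596). Irs1 shares 2822 exon bases with Gm9747, annotated on the opposite strand, which had 0 counts in all libraries. The strand setting of the counting is not given in the sources used here.

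Irs2 (ENSMUSG00000038894, chromosome 8, 10984681 to 11008458, minus strand) encodes the second adaptor, which in mouse liver is a known target of FOXO factors. It measured 15, 16 and 18.5 CPM in Control, 17.1, 17.2 and 16.3 CPM in Valine and 15.7, 23.6 and 20.2 CPM in Val+PA. The 3 groups overlapped, and the highest value was that of Val+PA 2. No comparison passed: the log2 fold change was 0.03 for Valine against Control (SE 0.15, edgeR adjusted p = 0.886) and 0.23 for Val+PA against Valine (SE 0.15, adjusted p = 0.474). Without Control 1 the first of these was -0.04, so its sign is unsettled. Against Control, Val+PA had 0.27 (SE 0.15, edgeR adjusted p = 0.187), which passed without Val+PA 1 at 0.41 (adjusted p = 0.0343).

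Pik3r1 (ENSMUSG00000041417, chromosome 13, 101680563 to 101768217, minus strand) encodes the regulatory subunit p85 alpha, which docks on phosphorylated IRS proteins. The Control wells had 19.6, 17.2 and 21.3 CPM, the Valine wells 26.9, 23.8 and 21.7 CPM and the Val+PA wells 18.7, 23.8 and 22.2 CPM. Valine wells lay just above Control wells, since the lowest Valine well was 21.7 CPM and the highest Control well 21.3 CPM. The log2 fold change of 0.32 did not pass (SE 0.14, edgeR quasi-likelihood adjusted p = 0.0755). It passed without Control 3, at 0.40 (edgeR adjusted p = 0.0462), without Val+PA 2, at 0.32 (0.0438), and without both, at 0.40 (0.00543). It also passed with library size alone as the scaling (0.0243) and in a fit of Valine and Control alone (0.0433). Val+PA gave -0.16 against Valine (SE 0.13) and 0.16 against Control (SE 0.14), and neither passed.

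Akt1 (ENSMUSG00000001729, chromosome 12, 112653821 to 112674884, minus strand) was the kinase gene with the larger level of the AKT1 and AKT2 pair. Control wells had 467, 447 and 408 CPM, Valine wells 305, 310 and 314 CPM and Val+PA wells 314, 436 and 335 CPM. The Valine wells lay between 305 and 314 CPM and were all below the Controls, while Val+PA 2 reached into the Control range. In Valine, Akt1 fell by 0.51 in log2 fold change (SE 0.12, edgeR quasi-likelihood adjusted p = 0.00563). The difference of -0.28 between Val+PA and Control did not pass (SE 0.12, edgeR adjusted p = 0.0857), but passed without Val+PA 2 at -0.44 (0.00139). Without Control 3 and Val+PA 2 it was -0.49 (edgeR adjusted p = 5.81e-06). Val+PA against Valine gave 0.22 (SE 0.12, edgeR adjusted p = 0.424).

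Akt2 (ENSMUSG00000004056, chromosome 7, 27591552 to 27640826, plus strand) encodes the AKT isoform of insulin-stimulated glucose transport. It measured 150, 152 and 167 CPM in Control, 174, 180 and 186 CPM in Valine and 174, 221 and 198 CPM in Val+PA. All Valine and Val+PA wells were above all Control wells. The difference from Control passed for Val+PA, at a log2 fold change of 0.34 (adjusted p = 0.0235, SE 0.11), and not for Valine, with 0.20 (SE 0.11, 0.146). The Val+PA call was lost without Control 1 (edgeR adjusted p = 0.0847), Control 2 (0.0822) or Val+PA 3 (0.061), and in a fit of the 2 groups alone (0.0722). The Valine difference passed without the wells Control 3 and Val+PA 2, at 0.26 (edgeR adjusted p = 0.00367), with library size alone as the scaling (0.0402) and in a fit of Valine and Control alone (0.0432). Between Val+PA and Valine the log2 fold change was 0.14 (SE 0.11, edgeR adjusted p = 0.545).

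Tbc1d4 (ENSMUSG00000033083, chromosome 14, 101442360 to 101609191, minus strand) encodes AS160, the Rab GTPase-activating protein that AKT switches off. Its wells ran 22.8, 24.9 and 21.9 CPM in Control, 27, 27.6 and 26.8 CPM in Valine and 25.2, 24 and 26.6 CPM in Val+PA. The Valine wells were the highest, without overlap with the other groups, and Val+PA overlapped Control. The log2 fold change of 0.23 in Valine did not pass (SE 0.10, edgeR quasi-likelihood adjusted p = 0.1), and passed without Val+PA 2, at 0.23 with an SE of 0.08 (0.0449), and in a fit of Valine and Control alone (0.0494). Val+PA gave 0.12 against Control (SE 0.10) and -0.10 against Valine (SE 0.10), and neither passed.

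Slc2a1 (ENSMUSG00000028645, chromosome 4, 119108711 to 119137983, plus strand) encodes GLUT1, the transporter of basal glucose uptake. Control wells had 473, 475 and 595 CPM, Valine wells 444, 431 and 460 CPM and Val+PA wells 521, 676 and 606 CPM. Every Val+PA well was above every Valine well, the Valine wells were all below the Controls, and Control 3 and Val+PA 2 were the highest wells of their groups. Val+PA stood at 601 ± 78 CPM against 445 ± 15 CPM in Valine (SD, n = 3), 1.35-fold, with a log2 fold change of 0.43 (SE 0.12). This gave the smallest p of the 9 genes in that comparison, 0.00396 in the edgeR quasi-likelihood test and 276th of all tested genes, and an adjusted p = 0.263. The log2 fold change exceeded in absolute size that of 81.5% of tested genes. It was 0.34 without Control 3 and Val+PA 2 (SE 0.06), where it passed (edgeR adjusted p = 0.0107), and it passed with no filter on low counts at 0.43 (0.0227). Leaving out any single library gave no call. Valine against Control gave -0.21 (SE 0.12, edgeR adjusted p = 0.19) and Val+PA against Control 0.22 (SE 0.12, 0.167). The latter passed without Control 3, at 0.34 (edgeR adjusted p = 0.0291), and without Control 3 and Val+PA 2, at 0.25 (0.00795).

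Slc2a4 (ENSMUSG00000018566, chromosome 11, 69942539 to 69948188, minus strand) encodes GLUT4 and was near the limit of detection. The Control wells held 5, 4 and 5 counts, the Valine wells 15, 15 and 15 and the Val+PA wells 8, 11 and 10. In CPM these were 0.16, 0.122 and 0.201, then 0.408, 0.436 and 0.44, then 0.217, 0.352 and 0.309. The 3 groups did not overlap and Val+PA lay between the others. Slc2a4 rose in Valine, 2.66-fold, or 1.41 in log2 fold change (adjusted p = 0.0169, SE 0.42). The filter asked for about 0.306 CPM in 3 libraries, which Slc2a4 met in the Valine wells and not in the Control wells, so its place among the tested genes came from the group where it was high. Its call was lost without Control 1 (edgeR adjusted p = 0.0551), Control 2 (0.0781), Valine 2 (0.0524) or Valine 3 (0.0531), and with no filter (0.0655). Val+PA gave 0.86 against Control (SE 0.44, edgeR adjusted p = 0.142) and -0.55 against Valine (SE 0.37, 0.491).

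**Figure D2:**
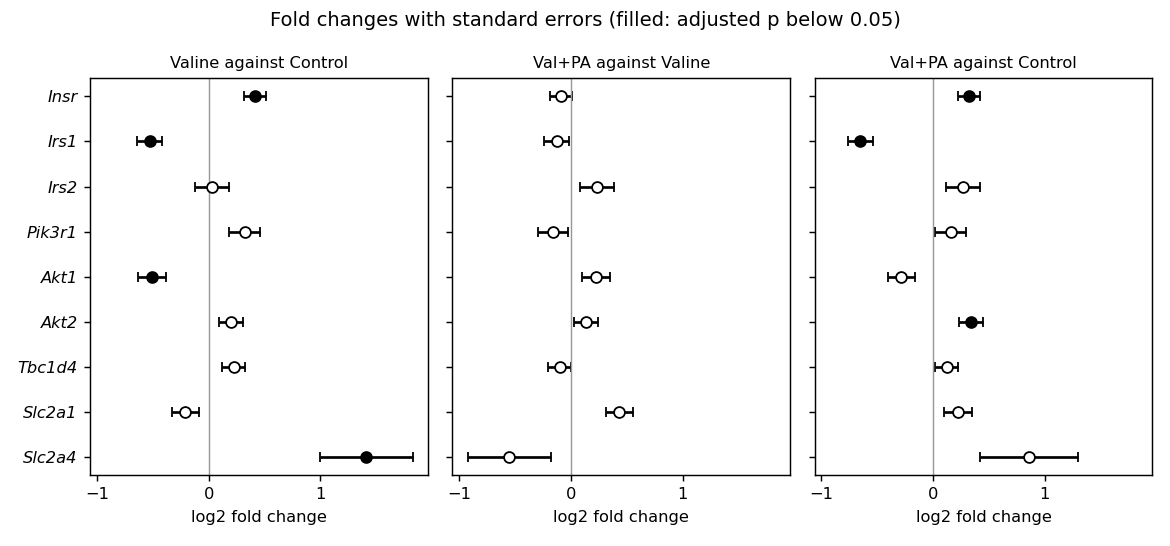
Log2 fold change (x axis) of the 9 genes (y axis) in the 3 comparisons, from the edgeR fit, with whiskers of 1 standard error. Filled points passed at a Benjamini-Hochberg adjusted p below 0.05 over all tested genes: 4 between Valine and Control, none between Val+PA and Valine and 3 between Val+PA and Control. The widest whiskers are those of Slc2a4.

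Levels of different genes were compared on the deposited normalized signal, which is relative to gene length. In each group Slc2a1 was highest, at a mean signal of 299, 266 and 358 in Control, Valine and Val+PA, followed by Akt1 at 220, 158 and 184. Slc2a4 was the lowest by far, at a signal of 0.0943, 0.258 and 0.176. Between them stood Irs1 and Akt2. In Control their signals overlapped, at 46.8 ± 7.8 and 44.8 ± 1.7 (SD, n = 3). In Valine Akt2 was above Irs1, at 52.9 ± 1.6 against 33.2 ± 1.6, and in Val+PA at 57.9 ± 6.9 against 30.4 ± 1.1, with no overlap. Insr had 7.5 to 10.3, Tbc1d4 6.18 to 7.40, Irs2 5.33 to 6.55 and Pik3r1 3.91 to 5.02 as group means. Within that lower set Tbc1d4 and Irs2 overlapped in Control and in Val+PA, and Irs2 and Pik3r1 overlapped in Valine.

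Ratios within a library removed the scaling between libraries. The signal of Akt2 over that of Akt1 was 0.185, 0.195 and 0.236 in the Control wells, 0.327, 0.333 and 0.341 in the Valine wells and 0.318, 0.291 and 0.34 in the Val+PA wells. The level of Akt2 relative to Akt1 was thus higher in every Valine and Val+PA well than in any Control well. Irs2 over Irs1 went from 0.117 ± 0.031 in Control to 0.168 ± 0.0095 in Valine and 0.215 ± 0.039 in Val+PA (SD, n = 3), again without overlap with Control. Irs1 over Insr went from 6.25 ± 1.1 to 3.23 ± 0.089 and 3.17 ± 0.29. Slc2a1 over Slc2a4 measured 3240 ± 530, 1030 ± 52 and 2070 ± 260 in the same order, no 2 groups overlapping, with the few Slc2a4 counts below it. Each of these 4 ratios had an exact two-sided permutation p of 0.1 for both comparisons with Control, the smallest that 3 against 3 wells can give, and a Benjamini-Hochberg adjusted p of 0.133 over 12 tests. Between Val+PA and Valine the exact permutation p was 0.3 for the AKT ratio, 0.2 for the IRS ratio, 0.8 for Irs1 over Insr and 0.1 for the transporter ratio.

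**Figure D3:**
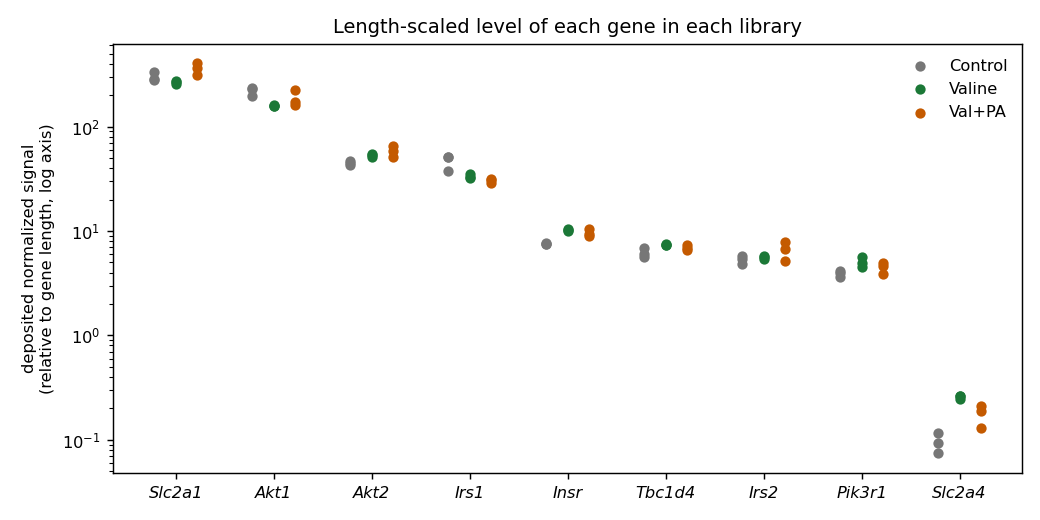
Deposited normalized signal, which is relative to gene length (y axis, log scale), of the 9 genes (x axis) in each library, coloured by group. Slc2a1 and Akt1 lie at the top in all 3 groups, Irs1 and Akt2 overlap in Control while Akt2 lies above Irs1 in Valine and Val+PA, and Slc2a4 is at most 0.264 in every library.

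The wider pathway was described by 6 lists of 74 genes ordered by role, 9 of them the genes above. All 74 passed the filter. Of the other 65 genes 25 were higher and 9 lower in Valine than in Control (edgeR quasi-likelihood test, adjusted p below 0.05), 52.3% beside the 41.9% of all genes. Their median log2 fold change was 0.15, against -0.00493 for all tested genes. In Val+PA against Control 23 were higher and 8 lower, 47.7% beside 39.2%. None of the 65 passed between Val+PA and Valine. The lists were chosen with earlier results of these data known, so these shares are no independent test of the pathway.

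Among 16 receptors, adaptors and their restraints, 4 rose and 3 fell in Valine, with a median log2 fold change of 0.08. That was 43.8% called, near the 41.9% of all tested genes. Grb14, an adaptor that inhibits the insulin receptor, had the largest rise, from 1.49 ± 0.57 to 3.70 ± 0.58 CPM (SD, n = 3; log2 fold change 1.30, SE 0.26). Enpp1, a membrane phosphodiesterase that can bind and inhibit the receptor, stood at 16.1 ± 2.2 CPM in Control, 37.9 ± 2.4 CPM in Valine and 56.6 ± 4.8 CPM in Val+PA. Its log2 fold change was 1.81 in Val+PA against Control (SE 0.13), the largest rise of the list there, and 0.58 against Valine (SE 0.12, edgeR adjusted p = 0.192). Sh2b2, an adaptor that docks on the activated receptor, fell by 1.03 in Valine (SE 0.20). Ptprf, a receptor tyrosine phosphatase, had the largest fall in Val+PA against Control, by 0.86 (SE 0.18).

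Of 11 genes of the phosphoinositide arm 5 rose and 1 fell in Valine, with a median log2 fold change of 0.32. The same numbers held in Val+PA against Control. The called share was 54.5% in each, beside 41.9% and 39.2% of all tested genes. Pik3ip1, a membrane protein that restrains phosphoinositide 3-kinase, had 4.42 ± 0.31 CPM in Control, 26.1 ± 0.13 CPM in Valine and 24 ± 2.3 CPM in Val+PA (SD, n = 3). That was a log2 fold change of 2.55 (SE 0.12) and 2.44 (SE 0.12) from Control. The catalytic subunits moved apart. Pik3cb, p110 beta, fell by 0.98 in Valine (SE 0.11), from 35.6 ± 1.7 to 18.1 ± 1.4 CPM. Pik3ca and Pik3cd, p110 alpha and delta, rose by 0.53 (SE 0.09) and 1.23 (SE 0.15). Inpp5k, a phosphatase that removes the lipid signal, rose by 1.03 (SE 0.13) in Valine. Pik3r3, a further regulatory subunit, had the smallest p of the list between Val+PA and Valine, at -0.18 in log2 fold change (SE 0.11, edgeR adjusted p = 0.46).

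Of 21 genes of AKT, its regulators and its substrates 6 rose and 4 fell in Valine, with a median log2 fold change of 0.14. That was 47.6% called, beside 41.9% of all tested genes. Trib3, a pseudokinase described as binding AKT and induced by amino acid stress, had the largest rise in Val+PA against Control, by 1.23 (SE 0.16). Rab8a, a Rab protein that acts below AS160 in muscle cells, fell by 0.52 in Valine (SE 0.10) and by 0.41 in Val+PA (SE 0.10). Rab10 and Rab13, of the same group, rose in Valine by 0.39 (SE 0.10) and 0.49 (SE 0.16). Tbc1d1, the AS160 paralog of muscle, fell by 0.33 in Valine (SE 0.11). Phlpp1, an AKT phosphatase, had the smallest p of the list between Val+PA and Valine (log2 fold change 0.47, SE 0.23, edgeR adjusted p = 0.388).

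The 9 genes of the GLUT family included 5 that rose and 1 that fell in Valine, with a median log2 fold change of 1.03. That was 66.7% called, beside 41.9% of all tested genes. Of the 5 that rose, 1 was Slc2a4, which met the filter on low counts in no Control well. Slc2a12, GLUT12, had the largest rise, from 0.63 ± 0.31 to 3.01 ± 0.19 CPM (SD, n = 3; log2 fold change 2.24, SE 0.31). Slc2a13, a myo-inositol transporter of the family, had 4.41 ± 0.45 CPM in Control, 15.3 ± 1.3 CPM in Valine and 15.2 ± 1.6 CPM in Val+PA. Slc2a3 and Slc2a8, GLUT3 and GLUT8, rose by 1.03 (SE 0.27) and 1.10 (SE 0.19) in Valine. Slc2a6, GLUT6, a lysosomal member, fell by 1.16 (SE 0.18), from 9.19 ± 1.4 to 4.12 ± 0.25 CPM. The members that rose were thus at most 15.3 CPM as a group mean, while Slc2a1, with group means from 445 to 601 CPM, was not called. Slc2a1 had the smallest p of this list between Val+PA and Valine.

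Of 10 genes of GLUT4 vesicle traffic 4 rose and 1 fell in Valine, with a median log2 fold change of 0.05. That was 50% called, beside 41.9% of all tested genes. Sort1, sortilin, which helps to form GLUT4 storage vesicles, measured 9.96 ± 1.9 CPM in Control and 35 ± 1.3 CPM in Valine (SD, n = 3), up by 1.81 in log2 fold change (SE 0.14), and 35 ± 1 CPM in Val+PA. Rhoq, the small GTPase TC10, rose by 1.24 (SE 0.14), Vamp2, a vesicle SNARE, by 0.53 (SE 0.16), and Lnpep, the aminopeptidase IRAP that travels with GLUT4, by 0.51 (SE 0.13). Myo1c, a myosin of vesicle delivery, fell by 0.43 (SE 0.11). These partners of GLUT4 were measured in wells where Slc2a4 itself was at most 0.44 CPM. Stx4a, the target SNARE, had the smallest p of the list between Val+PA and Valine (log2 fold change 0.35, SE 0.16, edgeR adjusted p = 0.386).

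Of 7 genes that act on glucose after entry or limit its uptake 3 rose and 1 fell in Valine, and the same numbers in Val+PA against Control. The called share was 57.1% in each, beside 41.9% and 39.2% of all tested genes. Ppp1r3c, a glycogen-targeting phosphatase subunit, rose by 3.79 in Valine (SE 0.26), from 0.341 ± 0.1 to 4.74 ± 0.66 CPM (SD, n = 3). Its Control wells held 7, 13 and 10 counts, and Control 1, at 0.224 CPM, did not meet the filter on low counts. The Control wells alone would thus not have placed it among the tested genes. Txnip, an arrestin that lowers glucose transporters at the surface, had 64 ± 6.2 CPM in Control, 281 ± 19 CPM in Valine and 223 ± 21 CPM in Val+PA. Its log2 fold change was 2.13 in Valine (SE 0.11, edgeR quasi-likelihood adjusted p = 1.13e-07) and -0.33 in Val+PA against Valine (SE 0.11, adjusted p = 0.321). Hk2, the muscle hexokinase induced by insulin, fell by 1.26 in Valine (SE 0.14), from 42.6 ± 5.4 to 17.7 ± 1.2 CPM. Pygm, muscle glycogen phosphorylase, rose by 1.34 (SE 0.21). Gys1, muscle glycogen synthase, measured 36.8 ± 5.9 and 43.2 ± 0.92 CPM and did not pass.

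**Figure D4:**
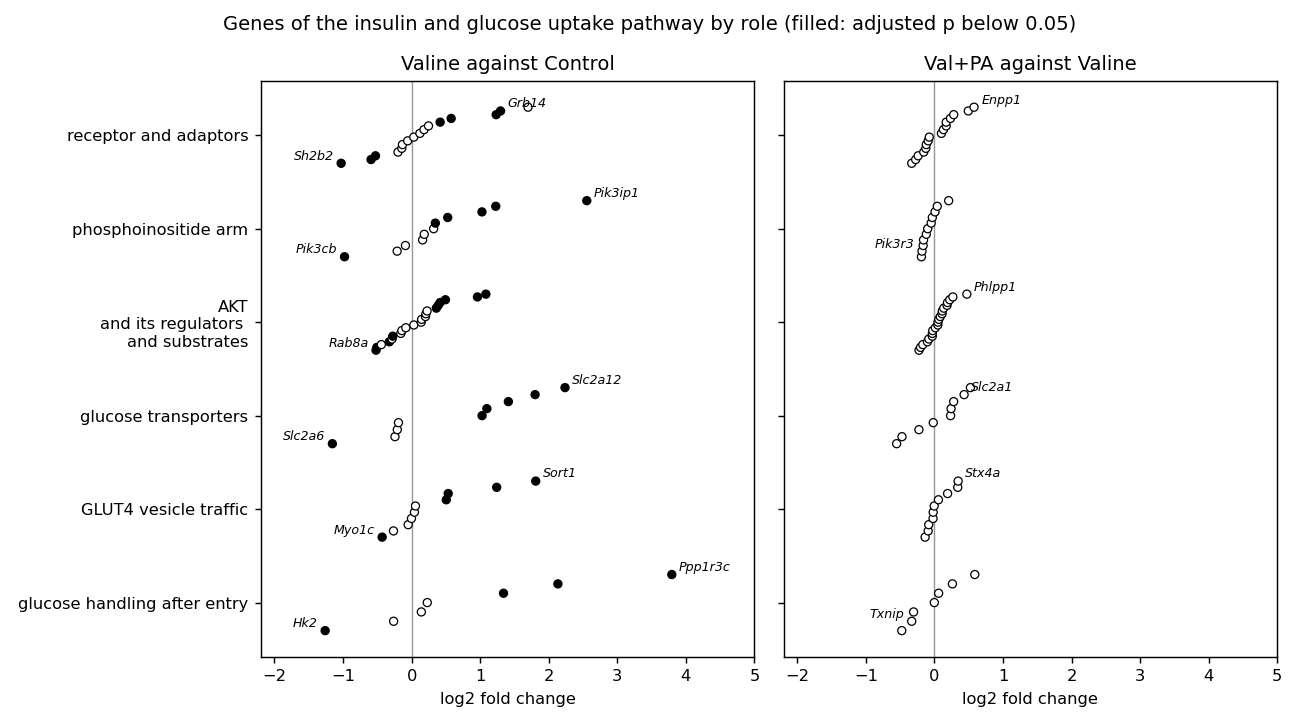
Log2 fold change (x axis) of the 74 pathway genes grouped by role (y axis), for Valine against Control on the left and Val+PA against Valine on the right. Each point is a gene, filled where it passed at an edgeR adjusted p below 0.05, and the labels mark genes named in the text. Filled points lie on either side of 0 on the left and there are none on the right.

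The genes with the profile nearest to a given gene were found by the root mean square difference of log2 CPM, centred on each gene's mean over the 9 libraries, among about 11055 genes. For Irs1 they were Sf3a1, a splicing factor subunit (0.0635), and Sec24d, a coat protein of vesicle export (0.0654), where the median gene was at 0.376. For Irs2 they were Cope (0.0547) and Crtc3 (0.0638), against a median of 0.335. Sumf1 (0.046), which activates sulfatases, lay near Slc2a1, against a median of 0.346. Sumf1 had 59.9 ± 8.1, 51.1 ± 2.3 and 66 ± 8.1 CPM in Control, Valine and Val+PA (SD, n = 3). Its lowest mean was in Valine and its highest in Val+PA, as for Slc2a1. That order follows from how Sumf1 was picked, by its nearness to Slc2a1 in the same libraries. Pdlim3 (0.128) and Col14a1 (0.141) lay nearest to Slc2a4, against a median of 0.567, a looser match on few counts. Pdlim3, a muscle actinin-associated protein, had 45.5 ± 4.2, 91.3 ± 3.3 and 72 ± 7.6 CPM (SD, n = 3) in Control, Valine and Val+PA.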

How the data were processed

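The authors deposited whole-number read counts per gene and a table of normalized signal, both with 9 library columns. The submitters' processing notes name GRCm38, HISAT2, featureCounts and DESeq2, with no role or order. Not given in the sources used here are versions, annotation release and strand setting. The signal the authors deposited, tested on 9225 genes with over 200 counts in every library, equals the count times 1 factor per gene and 1 per library, within 0.000755 on the log2 scale. Val+PA columns carry a shortened code and were matched by it. Symbols and positions came from GENCODE M21 (52147 of 53700 IDs), promoter sequences from RefSeq GRCm38.p6.

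Counts were filtered with filterByExpr, leaving 18415 genes, scaled by TMM and tested by quasi-likelihood (edgeR 4.0.16, R 4.3.3) in a single model of the 9 libraries, with 6 residual degrees of freedom. Tests were two-sided, with Benjamini-Hochberg adjustment over all tested genes at 0.05. Standard errors were derived as the size of the log2 fold change over the root of its F value. The method was tested on simulated counts in which far fewer genes changed than were called between Valine and Control, as many up as down. That test does not cover a change of so many genes or wells that stand apart. No replicate pair agreed within sampling noise.

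All 9 genes are named. Of each wider list the text names the called genes that rose and fell the most, or the gene of smallest p where none was called, per comparison. Some genes that this rule picks are not reported here. Other list members named were chosen after their values were seen. The 9 genes and the lists were chosen with earlier results of these data known. Likeness used log2 CPM with a prior count of 2 over genes that averaged 2 CPM or more. Alternatives were DESeq2 1.42.0, limma-voom (limma 3.58.1), RLE factors, library size alone, no filter, a fit of only the 2 groups compared, the replicate number as a block, leaving out each library or Control 3 and Val+PA 2 together, and limma on log2 of the signal plus 1 or 0.1 where the mean signal reached 0.5.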

Additional observations from a re-analysis of the deposited data

How the results depend on the processing

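Over 19 alternatives, Insr, Irs1 and Akt1 kept their direction and call between Valine and Control in all, and Irs1 did so between Val+PA and Control. The log2 fold change of Irs1 in Valine ran from -0.64 to -0.46, that of Akt1 from -0.56 to -0.44 and that of Insr from 0.38 to 0.49. The log2 fold change of Irs2 in Valine ran from -0.0378 without Control 1, a reversed sign, to 0.1248 without Control 3 and Val+PA 2, and the cause was not tested. With the 2 groups alone, 7 of the 9 genes were called between Valine and Control and 1 of 8 tested between Val+PA and Control. Leaving out 1 library gave 3 to 6 and 1 to 4 calls in these comparisons and 0 to 0 between Val+PA and Valine. Without Control 3 and Val+PA 2, 5 were called between Val+PA and Control. Between Val+PA and Valine, with 0 calls at first, DESeq2 called 186 genes (0 of the 9 and 1 of the 74), no filter 763 (1 and 2), and the fit without Control 3 and Val+PA 2 called 604 (1 and 4). The 1 of the 9 was Slc2a1 each time. The fit with a replicate block called 4, 0 and 3 of the 9, as without it. No pairing of same-numbered wells was assumed. Correlations of their deviations from the group means ran from -0.272 to 0.158. These cannot settle whether such wells share an effect, since Control 3 and Val+PA 2 stood apart within their groups. Slc2a4 had too low a signal for the limma alternatives on the deposited signal, and at 4 to 15 counts a library its fold is imprecise.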
